A study of Mus musculus with 8 samples.

Results

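A set of 10 chaperone genes was followed in mouse bone marrow progenitors, namely Hspa1a, Hspa1b, Hspa5, Hspa8, Hsp90aa1, Hsp90ab1, Hsp90b1, Dnaja1, Dnajb1 and Hspd1. They were chosen by name, as genes of the heat shock and endoplasmic reticulum (ER) chaperone systems, and all 10 were found among the 32285 genes of the count matrices. The cells were lineage-negative, c-Kit-positive marrow cells of wild-type mice, profiled by droplet single-cell RNA-seq as 8 libraries of 1 mouse each. There was 1 male and 1 female at 14 weeks (young), at 50 weeks (middle-aged), at 78 weeks for the male and 79 weeks for the female (old), and at 95 weeks (very old). No mouse carried a transgene or received a treatment. The 2 very old libraries bear another library series in their names (SL20) than the other 6 (SL19), so an age of 95 weeks and the library series cannot be told apart.

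Chaperones bind unfolded proteins and help them to fold. In the cytosol, HSP70 proteins hold client proteins with the help of J-domain partners of the DNAJ family. HSP90 proteins act there on later folding steps. Hspa5 (BiP) and Hsp90b1 (GRP94) do the same work in the ER, and Hspd1 (HSP60), of another chaperone family, acts in mitochondria. Hspa1a and Hspa1b are the classical inducible HSP70 genes, which heat shock factors switch on within minutes of proteotoxic stress, and the ER genes are targets of the unfolded protein response. Because cells are taken out of tissue, chilled and sorted before capture, transcripts of inducible heat shock and immediate-early genes are also known to report on cell isolation. Here bones were crushed on ice, red cells lysed, and c-Kit-positive cells enriched on magnetic beads, and the time from collection to capture is not given in the sources used here.

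Sequence from before the start is shown for 5 members, because the inducible pair, the ER pair and Hspd1 carry the results below. Sequences are from RefSeq on GRCm38.p6, read along the gene's strand, and position -1 is the base before RefSeq's start. GENCODE places an earlier untranslated first exon over part of the Hspa5, Hsp90b1 and Hspd1 windows. The Hsp90b1 stretch is cut to the part upstream of that exon. The Hspa5 and Hspd1 stretches are cut to 30 bases and lie within the genes as GENCODE places them. In the first 3, capitals mark the core of a heat shock element, searched as GAANNTTC or TTCNNGAA, each of which reads the same on both strands, so that overlapping matches run together.
Hspa1a, chr17:34972157-34972406, minus strand, positions -250 to -1: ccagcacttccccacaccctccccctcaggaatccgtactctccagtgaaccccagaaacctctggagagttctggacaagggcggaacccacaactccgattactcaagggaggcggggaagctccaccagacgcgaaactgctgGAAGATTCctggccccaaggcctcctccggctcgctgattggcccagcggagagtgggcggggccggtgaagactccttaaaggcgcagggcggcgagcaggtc
Hspa1b, chr17:34959239-34959488, minus strand, positions -250 to -1: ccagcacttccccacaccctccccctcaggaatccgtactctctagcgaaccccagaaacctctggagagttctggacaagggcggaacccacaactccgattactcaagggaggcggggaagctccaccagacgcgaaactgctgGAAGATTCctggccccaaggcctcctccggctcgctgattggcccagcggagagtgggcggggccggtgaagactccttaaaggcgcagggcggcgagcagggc
Hspd1, chr1:55088053-55088082, minus strand, positions -150 to -121: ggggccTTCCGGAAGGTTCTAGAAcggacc
In the other 2, capitals mark an ER stress element, searched on both strands as CCAAT and CCACG with 9 bases between them.
Hspa5, chr2:34772019-34772048, plus strand, positions -71 to -42: acttcaCCAATCGGAGGCCTCCACGacggg
Hsp90b1, chr10:86705510-86705694, minus strand, positions -250 to -66: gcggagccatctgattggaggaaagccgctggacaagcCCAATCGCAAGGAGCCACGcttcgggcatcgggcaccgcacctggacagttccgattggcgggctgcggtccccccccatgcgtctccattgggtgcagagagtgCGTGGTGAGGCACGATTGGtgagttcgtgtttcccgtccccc

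Hspa1a and Hspa1b lie next to each other on chromosome 17 (34969190 to 34972156 and 34956436 to 34959238, GRCm38), and their 300-base promoter windows were the same at 296 positions. Each window held 1 heat shock core, at position -104. Of the 2 windows of Hspd1, 1 held 3 cores that overlap, from -144, and the other held 0. A core was present in 15.1% of all 32851 windows of that length, and 2 or more in 1.96%. The ER stress element was far rarer, in 0.119% of windows, and stood once in the window of Hspa5 (at -65) and 2 times in that of Hsp90b1 (at -212 and -107). None of the windows of Dnaja1 and Dnajb1 held an ER element, and 1 window of Dnaja1 held a heat shock core, at -124. A match of letters is a description of the sequence only. Windows for Hspa8, Hsp90aa1 and Hsp90ab1 were not used here.

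The libraries held between 83062003 and 150135029 unique molecular identifiers (UMIs, 1 per captured transcript), with 8505 to 14951 per median cell, and 59136 of 59465 barcodes passed a filter of 200 detected genes. The files carry no cell annotation, so cells were clustered without the chaperone, heat shock and immediate-early genes, and 20 of 25 clusters were given lineage names from marker genes (9449 cells stayed unnamed, and 232 macrophage-like cells were too few to follow). Levels are UMIs summed over the cells of a library or lineage, per 1000000 UMIs there (CPM). Progenitor markers were present throughout, the 11 of granulocyte progenitors summing to 4819 to 12913 CPM per library and the 13 of erythroid cells to 1986 to 5362, against 4.07 to 9.18 for 8 of stromal and endothelial cells. Between 6 and 27 barcodes were shared by any 2 libraries. The mitochondrial share was 5.39% to 6.49% of UMIs per library, but 4 clusters with 13412 cells in all stood at 19.2% to 31.3%, against at most 6.95% in the others. They made up 46.8% of the lymphoid-primed multipotent progenitor-like cells (18.4% of their UMIs) and 36.7% of the erythroid-like cells (4.35% of their UMIs). Levels of Hspa5 and Hsp90b1 in the lymphoid-primed cells are also given without these clusters. So are differences between cells with and without the inducible pair. Levels in erythroid-like cells are given only with them. The cluster of this kind among the lymphoid-primed cells held 5209 cells. It had 3 lymphoid-primed markers among its 50 leading genes, but also Mpo and Ctsg, markers of granulocyte progenitors. In clusters made without alignment of the libraries, a cluster with much the same leading genes stayed unnamed. The lineage name of these 5209 cells is therefore unsure. In bulk sums such as these, fewer cells making a transcript and less transcript per cell cannot be told apart.

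The inducible pair varied far more between libraries than any other member. Hspa1a, the inducible HSP70, was at 3.21 CPM in the young male and 12.1 in the young female, 17.8 and 13.4 in the middle-aged male and female, 50.0 and 0.542 in the old male and female, and 1.93 and 2.24 in the very old male and female. Hspa1b, its twin, ran in parallel, at 3.29 and 10.7 in the young male and female, 14.8 and 12.8 at middle age, 32.7 and 0.482 in the old mice and 2.97 and 3.08 in the very old mice. The old male was thus the highest of 8 and the old female, of nearly the same age, the lowest, a 92.3-fold difference for Hspa1a and 67.8-fold for Hspa1b. The counts behind these extremes were 4743 and 45 UMIs of Hspa1a and 3098 and 40 of Hspa1b. In every other age group the 2 mice differed by at most 3.76-fold, and at 95 weeks by 1.16-fold for Hspa1a and 1.04-fold for Hspa1b. Among the 9073 genes with a mean of 5 CPM or more, Hspa1a ranked 9 and Hspa1b 13 by the spread between the highest and lowest library on the log2(CPM + 1) scale, and the other members ranked between 456 and 2999.

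The lead of the old male was seen in each lineage. The old male was highest in all 9 lineages for both genes, between 21.5 CPM of Hspa1a in erythroid-like cells and 73.4 in dendritic progenitor-like cells. The old female was lowest in 8 of 9 lineages for Hspa1a and 7 of 9 for Hspa1b, and never above 1.85 CPM of Hspa1a, a value reached in HSC-like cells, where it was the third highest library. In megakaryocyte-like cells, Hspa1a was at 66.2 CPM in the old male and at 0.352 in the old female. The old male held 346 UMIs of Hspa1a and 134 of Hspa1b in 642 HSC-like cells, and no other library held more than 12 or 10. The young male and the very old female had no Hspa1a UMI in these cells, where 3 UMIs would have given 1.72 and 1.28 CPM. The HSC-like level in the old male, 68.7 CPM, stood beside 3.22 in the middle-aged male, 1.85 in the old female and 1.11 or less in the other 5.

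**Figure D1:**
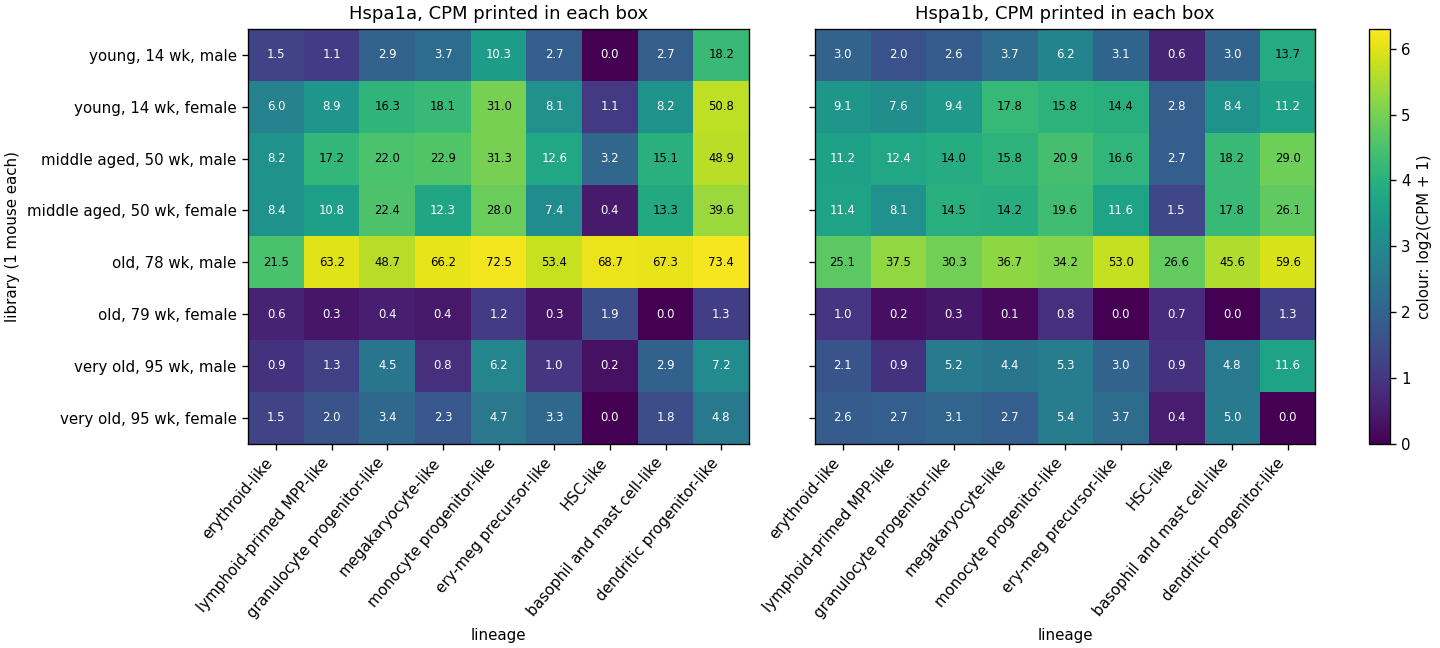
Levels of Hspa1a (left) and Hspa1b (right) in CPM, printed in each box, for 8 libraries (rows, 1 mouse each) and 9 lineages (columns), with colour on the log2(CPM + 1) scale. The row of the old male is the highest in every column, with 21.5 to 73.4 CPM of Hspa1a, and the row of the old female holds no Hspa1a value above 1.85 CPM.

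The transcripts were spread over many cells of the old male rather than held by a few. In that library 2904 of 6647 cells had a UMI of either gene, which is 43.7% (exact 95% interval 42.5% to 44.9%), against 67 of 7975 cells or 0.840% (0.652% to 1.07%) in the old female. The other 6 libraries lay between 5.88% and 23.1%. These intervals cover counting error only. The 1% of cells with most of these UMIs held 11.6% of them in the old male, and 76 of its cells had 10 or more, with 28 in the highest cell. Depth differed in the same direction, with 10551 UMIs in the median cell of the old male and 8505 in that of the old female. After every cell was thinned to 1000 UMIs, which left out 2.42% to 7.57% of cells per library, the share of cells with Hspa1a was 4.84% at the highest and 0.0268% at the lowest. No lineage here can be taken to lack these genes, so no background share from free RNA was available. Within the old male, the ratio of Hspa1a to Hspa1b UMIs ran from 0.858 in erythroid-like cells and 1.01 in erythroid-megakaryocyte precursor-like cells to 2.12 in monocyte progenitor-like and 2.58 in HSC-like cells. The 2 transcripts can be told apart by their ends, since the last 300 bases of the longest GENCODE transcripts were alike at 52.4% of aligned positions, against 86.6% over the whole transcripts, but reads from the shared coding part may have been split or lost in counting.

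In some lineages, cells that carried the inducible pair also carried more of the ER chaperones, in part along with the clusters of high mitochondrial share. At 2000 UMIs per cell, 12 groups of 1 lineage in 1 library had 50 or more cells with a UMI of Hspa1a or Hspa1b, 7 of them in the old male. Hspa5, the ER HSP70, was higher in the cells with such a UMI than in those without in 11 of the 12, with a median log2 difference of 0.36 and a range of -0.04 to 1.43. Hsp90b1, the ER HSP90, was higher in 9 of 12, with a median of 0.34. In lymphoid-primed multipotent progenitor-like cells of the old male, Hspa5 stood at 1119 CPM in 198 cells with the pair and 651 in 1065 without, a log2 difference of 0.78. Without the cluster of high mitochondrial share it stood at 220 CPM in 100 cells and 171 in 674, a difference of 0.37. In the same library the difference was 0.78 in erythroid-megakaryocyte precursor-like cells, with 26 UMIs of Hspa5 in the cells with the pair, but 0.20 in granulocyte progenitor-like, 0.06 in HSC-like and -0.04 in monocyte progenitor-like cells. Hsp90b1 was lower with the pair in the granulocyte and monocyte classes, by log2 differences of -0.29 and -0.14. The medians of the cytosolic members were nearer 0, at 0.01 for Hspa8, 0.07 for Hsp90aa1, -0.03 for Hsp90ab1, 0.08 for Dnaja1 and -0.11 for Dnajb1, which had the widest range of them, -0.92 to 0.70. Without the 4 clusters, Hspa5 was higher in 10 of the 12 groups (median 0.35, range -0.39 to 1.02) and Hsp90b1 in 8 (median 0.18), and the medians of the 5 cytosolic members ran from -0.03 to 0.14. In erythroid-like cells of the old male the difference of Hspa5 then went from 0.08 to -0.39. Groups outside lymphoid-primed multipotent progenitor-like and erythroid-like cells lost no cell, so their differences could not change. Removal left 35 cells with the pair in the lymphoid-primed group of the middle-aged male. It left 40 in the erythroid-like group of the middle-aged female, also under 50. The highest value, 1.02, rests on 6 lymphoid-primed cells of the middle-aged female with 10 UMIs of Hspa5. Cells share a library, so these differences carry no test.

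Other readouts of isolation differed in how far they set the old male apart. Over all cells Jun, an immediate-early transcription factor, was at 82.2 CPM in the old male, 66.2 in the old female, 36.3 to 58.4 in the young and middle-aged mice and 12.02 and 13.3 in the very old mice. Fos, its partner, was at 7.01 CPM in the old male and between 0.892 and 4.72 elsewhere. Fosb, of the same family and chosen after its values were seen, was at 5.93 CPM in the old male and 0.438 to 2.66 elsewhere, and in HSC-like cells at 21.4 against at most 6.67. Egr1, another immediate-early factor, was at 3.19 in the old male and 6.02 in the old female, within its range of 1.38 to 6.58. Hspb1, a small heat shock protein gene, stayed under 1 CPM in all 8 libraries, with 0.959 as its highest value, in the old male. Bag3 and Hsph1, which heat shock factors also induce, ranged from 5.10 to 7.92 and from 46.1 to 94.5 CPM, with 7.92 and 59.7 in the old male, and were chosen after their values were seen. The summed level of 30 immediate-early genes was 779 CPM in the old male and 745 in the old female, 620 to 730 in the young and middle-aged mice, and 496 and 528 in the very old mice. The part of cell isolation in the Hspa1a and Hspa1b levels was not tested.

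Across the 8 libraries no member's correlation with the summed immediate-early genes passed adjustment over the 10 members. Pearson's r was 0.58 for Hspa1a and 0.57 for Hspa1b (two-sided exact permutation p = 0.118 and 0.131, both 0.219 adjusted), and Spearman's rho was 0.48 for both (exact p = 0.216, adjusted 0.360). The largest r was that of Dnaja1, 0.80 (exact p = 0.0209, adjusted over 10 members 0.0929, rho = 0.60, exact p = 0.132), followed by Hspa5 at 0.79 (exact p = 0.0219, adjusted 0.0929) and Hsp90ab1 at 0.76 (exact p = 0.0279, adjusted 0.0929). Over the 10 members the lowest adjusted exact permutation p of a Spearman's rho was 0.288. The 2 libraries farthest from the median were the 2 very old ones, and without them, within the 6 libraries of series SL19, r was 0.23 for Dnaja1, -0.04 for Hspa5 and 0.25 for Hsp90ab1, so those relations rest on the very old libraries. For Hspa1a r was 0.53 within the 6 (exact p = 0.307).

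Over all cells the other 8 members were steady by comparison, and 5 of them were lowest in the very old libraries. Hspa5 was at 583 and 529 CPM in the young male and female, 628 and 640 at middle age, 497 and 535 in the old mice and 315 and 381 in the very old mice. Hspa8, the constitutive HSP70, was at 2711 and 2535, 2452 and 3061, 2182 and 2325, and 1919 and 2052 in the same order. For both genes the very old pair was below the other 6 libraries, as it also was for Hsp90ab1, Hsp90b1 and Dnaja1, 5 of 10 members in all, and this held for 19.2% of the 15361 genes tested. Dnaja1, a J-domain partner of HSP70, was at 303 and 318 CPM in the very old male and female and between 383 and 490.3 elsewhere. Hsp90b1 was at 321 and 391 against 395 to 568.3, and Hsp90ab1, the constitutive cytosolic HSP90, at 2806 and 2930 against 3202 to 3925. Hsp90aa1, the inducible cytosolic HSP90, ran from 1429 in the old female to 2056 in the middle-aged male. In these sums over all cells it did not set the very old mice apart, and the same held for Hspd1 and Dnajb1. Hspd1 ran from 607 in the old female to 859.9 in the middle-aged male, and Dnajb1, the J-domain partner most closely tied to heat shock, only from 46.4 to 65.0, with 60.3 in the old male. Over the 8 libraries the coefficient of variation was 10.96% to 22.3% for these 8 genes and 130% and 104% for Hspa1a and Hspa1b. Sums over all cells also follow the mix of lineages. Within erythroid-like and within megakaryocyte-like cells, both very old mice were below the other 6 for Hsp90aa1 and for Hspd1. In HSC-like cells this held for Hsp90aa1 but not for Hspd1. Among erythroid-like cells the share of all genes with this order was also larger than over all cells.

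**Figure D2:**
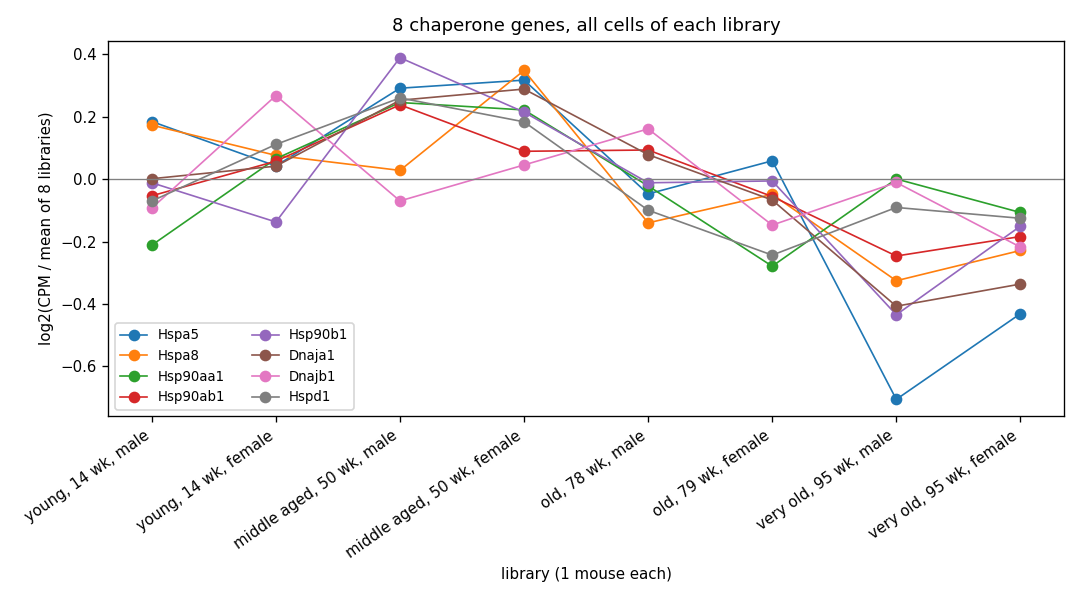
Log2 of each gene's CPM over its mean of 8 libraries (vertical axis) for the 8 members other than Hspa1a and Hspa1b, in all cells of each library (horizontal axis, in order of age). The middle-aged libraries lie mostly above 0, and Hspa5 falls lowest, at 315 and 381 CPM in the very old male and female.

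The members differed in level between lineages. The ER pair was highest in granulocyte progenitor-like cells, at 1004 ± 280 CPM for Hspa5 and 783 ± 176 for Hsp90b1 (mean ± SD, n = 8 mice), followed by monocyte progenitor-like cells at 872 ± 218 and 699 ± 109, an order that each of the 8 mice kept. It was lowest in erythroid-megakaryocyte precursor-like cells, at 144 ± 20.9 and 150.4 ± 13.2, and next lowest in HSC-like cells, at 211 ± 63.4 and 178 ± 33.9. The fold between the highest and lowest lineage was 6.97 for Hspa5 and 5.204 for Hsp90b1, the widest of the constitutive members, and was in the same direction in 8 of 8 mice. Megakaryocyte-like and erythroid-like cells, at 332 ± 72.7 and 334 ± 58.6 of Hspa5, did not differ beyond their spread. Lymphoid-primed multipotent progenitor-like cells stood at 547 ± 163 CPM of Hspa5 and 438 ± 94.5 of Hsp90b1. Without their cluster of high mitochondrial share, whose leading genes included Mpo and Ctsg, they stood at 281 ± 78.1 and 249.9 ± 49.9.

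Hspa8, Hsp90aa1, Hsp90ab1, Dnajb1 and Hspd1 had their highest mean in erythroid-like cells. Hsp90aa1 was at 2619 ± 406 CPM there, above the 1402 ± 412 of monocyte progenitor-like cells in 8 of 8 mice, and at 813 ± 117 in HSC-like cells. Hspd1 was at 1026 ± 96.2 in erythroid-like cells, 745 ± 251 in monocyte progenitor-like cells and 264 ± 63.9 in HSC-like cells, where it was next to the lowest, dendritic progenitor-like cells at 251 ± 55.1. Hspa8 went from 2936 ± 477 in erythroid-like to 1443 ± 254 in HSC-like cells. Hsp90ab1 was as high in monocyte progenitor-like as in erythroid-like cells, 3627 ± 496 and 3629 ± 486, a pair that did not differ beyond its spread. Dnajb1 was highest in erythroid-like cells at 68.5 ± 9.23 and lowest in granulocyte progenitor-like cells at 33.0 ± 4.11, in reverse to the ER pair. Dnaja1 was the flattest, with 479 ± 95.4 in granulocyte progenitor-like cells, its highest lineage, and 331 ± 75.6 in dendritic progenitor-like cells, its lowest, and HSC-like cells in the middle at 374 ± 61.2. By mean, HSC-like cells were last or next to last for 6 of the 8 members other than Hspa1a and Hspa1b, the exceptions being Dnaja1 (5 of 9 in order) and Dnajb1 (4 of 9). For Hspa1a and Hspa1b the spread between mice was as large as the mean in most lineages, for example 9.43 ± 23.98 CPM of Hspa1a in HSC-like cells, so most of their lineage order is not resolved. In the old male, which carried that mean, HSC-like cells were the third highest lineage for Hspa1a. For Hspa1a, dendritic progenitor-like cells (30.5 ± 26.4) were above monocyte progenitor-like cells (23.1 ± 23.5), and these above megakaryocyte-like cells (15.8 ± 22.1), in 8 of 8 mice. The dendritic value rests on 1 UMI in the old female, 2 in the very old female, 5 in the very old male and 8 in the young male. Dendritic and monocyte values were 4.80 and 4.68 CPM in the very old female, and 73.4 and 72.5 in the old male. Their order is therefore not resolved in each mouse. No neighbours in the order of Hspa1b held in all mice.

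**Figure D3:**
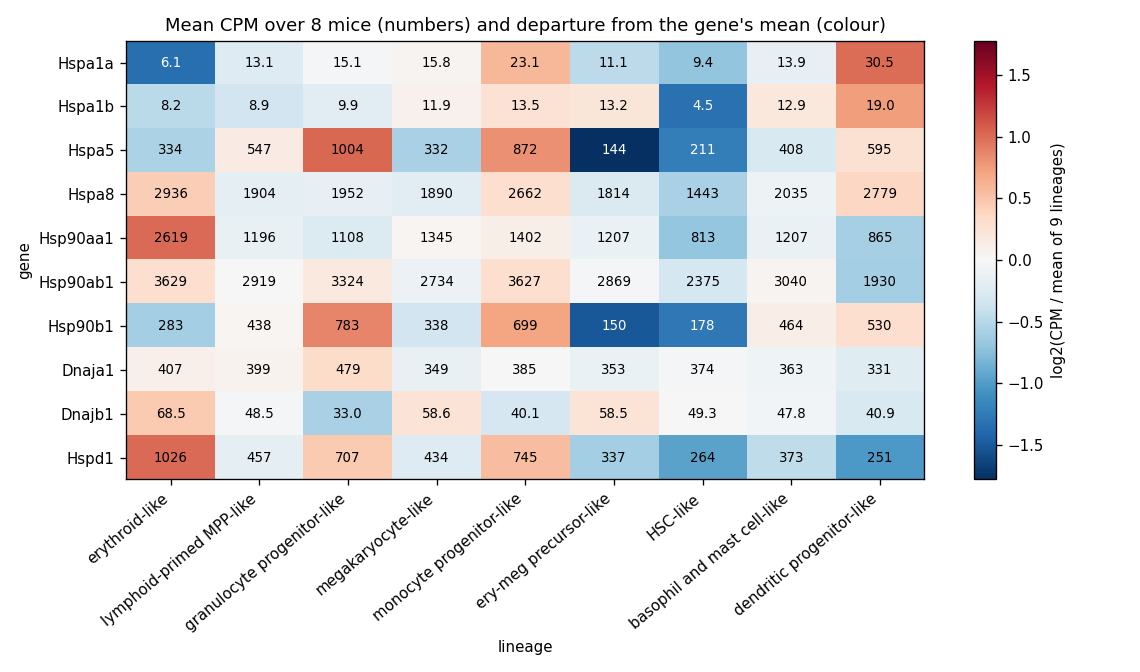
Mean CPM over 8 mice, printed in each box, for 10 genes (rows) and 9 lineages (columns), with colour for log2 of the value over the gene's mean of the 9 lineages. Hspa5 and Hsp90b1 peak in granulocyte progenitor-like cells at 1004 and 783 CPM, while Hsp90aa1 and Hspd1 peak in erythroid-like cells at 2619 and 1026.

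Genes whose pattern over the 72 sums of lineage and library was most like that of Hspa5 all belonged to the ER folding apparatus by name or known function. They were Pdia3 (Pearson's r = 0.96) and Pdia6 (r = 0.96), which are protein disulphide isomerases, Dnajb11 (r = 0.95), the J-domain partner of BiP, Manf (r = 0.95), an ER-resident stress factor, and Erp44 (r = 0.94), a thioredoxin-like ER protein, out of 7748 genes compared. Of the members, Hsp90b1 had r = 0.96 with Hspa5, and Dnajb1 had r = -0.50. For Hspa1a the nearest genes outside the members were much less alike, namely Eno1 (r = 0.55), Jmjd6 (r = 0.50), Polr2l, Sirt7 and Tsta3 (r = 0.49, 0.49 and 0.48), whereas Hspa1b had r = 0.93. The sums share mice and depth, and these values are descriptions.

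Over all cells, the log2 fold change with age was below 0 for 10 of 10 members. Between the 4 older mice (old and very old) and the 2 young mice, 0 of 10 members passed an adjusted p of 0.05 in edgeR, where 1.21% of all genes did. At an unadjusted p under 0.05 there were 2, Hspa5 and Hspa8, beside 11.7% of all genes. DESeq2 called those 2, and 2.34% of all genes. Hspa5 averaged 556 ± 38.8 CPM in young (SD, n = 2) and 432 ± 102 in older mice (n = 4), with overlapping groups, a log2 fold change of -0.39 (SE 0.091, adjusted p = 0.120). Hspa8 averaged 2623 ± 125 and 2120 ± 174 without overlap, a log2 fold change of -0.31 (SE 0.086, adjusted p = 0.188 in edgeR). Hspd1 had no overlap either, at 730 ± 64.7 and 652 ± 31.3 CPM, with a log2 fold change of -0.16. These were 2 of 10 members, and 12.4% of the 15361 genes tested had no overlap. The median log2 fold change was -0.18 over the 10 members and -0.02 over all genes. Hspa1a and Hspa1b had log2 fold changes of -0.36 and -0.23 with standard errors of 1.33 and 1.22, and the sign turned when the very old mice were left out (0.98 and 0.62), so no direction with age can be given for them.

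In HSC-like cells, 3 of the 8 members tested fell with age, namely Hspd1, Hspa5 and Hspa8, where 4.41% of all genes fell. Hspa1a and Hspa1b did not pass the filter on low counts there. Hspd1, the mitochondrial HSP60, was at 273 and 318 CPM in the young male and female, 338 and 343 at middle age, 203 and 243 in the old mice and 183 and 208 in the very old mice. Each older mouse was below both young mice, and the log2 fold change was -0.37 (SE 0.092, adjusted p = 0.0111 in edgeR). Hspa5 was at 266 and 240.4 CPM in the young mice, 204 and 295 at middle age, 135 and 258 in the old male and female and 131 and 159 in the very old mice. The old female overlapped the young mice and the other 3 older mice did not, and the log2 fold change was -0.49 (SE 0.139, adjusted p = 0.0237). Hspa8 was at 1662 and 1543 CPM in the young mice, 1513 and 1852 at middle age, 1168 and 1448 in the old mice and 1123 and 1235 in the very old mice, without overlap between older and young, and its log2 fold change was -0.24 (SE 0.078, adjusted p = 0.0491).

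DESeq2 called 0 of the 8 members and 3.64% of all genes, and gave 4 members and 7.83% of all genes an unadjusted p under 0.05. That last share was over 17596 genes, more than the 10994 that passed the edgeR filter. Over those 10994 genes, edgeR gave 24% an unadjusted p under 0.05, and 5 of the 8 members. In edgeR no member was called with the old mice alone against the young, where the log2 fold changes were -0.31 for Hspd1, -0.34 for Hspa5 and -0.20 for Hspa8, with a linear trend on age, without the sex term, or when the young male or the old male was left out. Without the young male the fold change of Hspa5 was -0.11 and that of Hspa8 -0.05, while that of Hspd1 was -0.40 (adjusted p = 0.813, 0.887 and 0.0762 in edgeR). Without the old male they were -0.32, -0.18 and -0.33, without the young female Hspd1 was not called (adjusted p = 0.111), and without the very old female Hspa5 was not (adjusted p = 0.0554). Hspa8 was not called without either very old mouse in turn. Fewer members were called with clusters made without Harmony, the step that aligns libraries. The share of all genes called is not given for these edgeR settings, so the lost calls are not read as results about the members. Of the members that were not called, Dnaja1 had -0.26 (adjusted p = 0.0515) and Hsp90b1 -0.29 (adjusted p = 0.0876), and both were lower in each older mouse than in both young mice. The same held for Hsp90ab1, at 2434 ± 125 CPM in young and 2185 ± 171 in older mice, with a log2 fold change of -0.02 after TMM scaling, the trimmed-mean scaling of libraries used in edgeR. Hsp90aa1 and Dnajb1 had log2 fold changes of -0.08 and -0.02. In all, 5 of the 8 tested members had no overlap between older and young mice, as did 37.9% of the 10994 genes tested. The median was -0.25 over the 8 members and -0.02 over all genes. Scaling by library total alone moved the median of all genes to -0.15 and turned the split of calls from 791 higher and 485 lower to 532 higher and 1176 lower, and 5 members were then called lower.

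**Figure D4:**
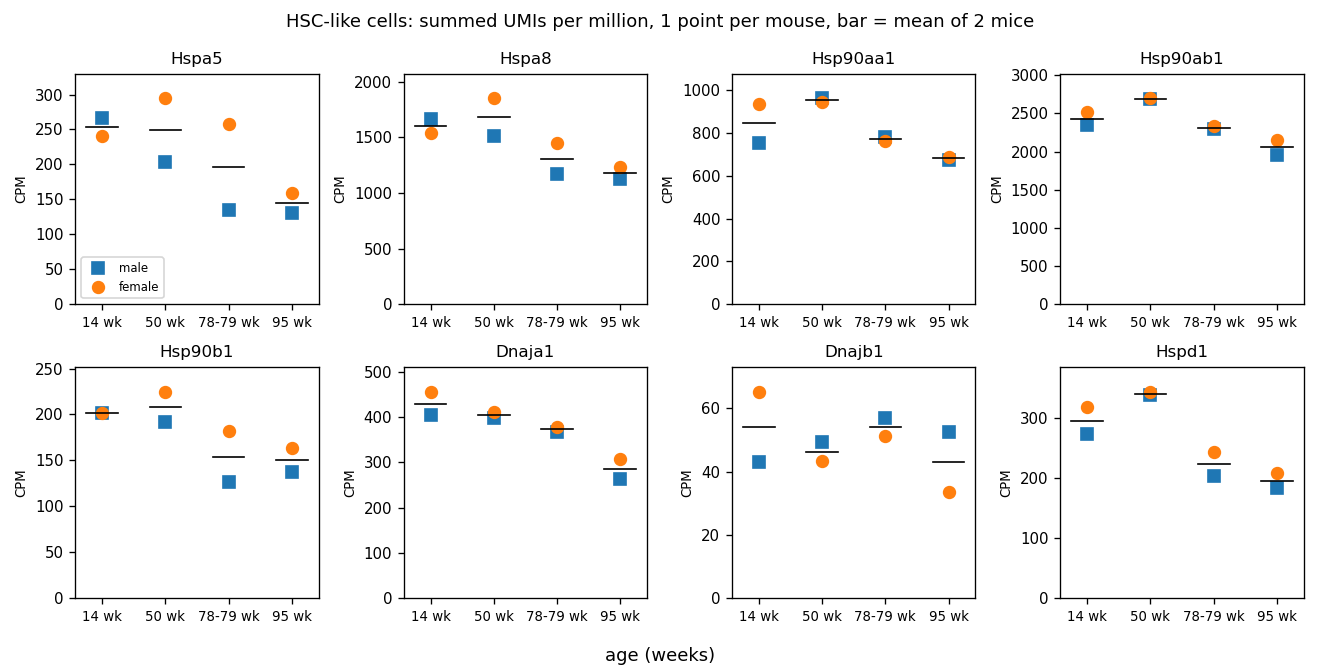
CPM in HSC-like cells (vertical axes from 0) of 8 members by age in weeks (horizontal axes), with 1 point per mouse, squares for males, circles for females and a bar for the mean of 2 mice. Hspd1 lies at 273 and 318 CPM at 14 weeks and between 183 and 243 at 78 weeks and later, while Hspa5 at 78 to 79 weeks is split, at 135 in the male and 258 in the female.

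The make-up of the HSC-like cells moved along with this difference. At an adjusted p of 0.05 in edgeR, 28 of 40 S-phase genes tested there were called lower in older mice and 0 higher, and of 41 G2/M genes 13 were called lower and 0 higher, beside 4.41% and 7.19% of all genes. Fold changes were below 0 for 38 of the 40 and 34 of the 41. A filter on cells whose S or G2/M score was above 0 removed only 91 of 3037 HSC-like cells, between 0.779% and 9.05% of a library, so it says little about cycling. After it Hspa5 (log2 fold change -0.48) and Hspd1 (-0.31) were called, and Hspa8 was not (-0.21, adjusted p = 0.111 in edgeR). The 8 markers of lymphoid-primed progenitors summed to 1185 and 1456 CPM in young and 596 to 755 in older HSC-like cells, and the 8 markers of erythroid-megakaryocyte precursors to 697 and 823 against 1470 to 1803, both without overlap and with no marker at 0. The 12 HSC markers summed to 1440 and 1568 against 1666 to 2090. The part of this shift in the fall of the chaperones was not tested.

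Outside HSC-like cells, edgeR called members with age only in megakaryocyte-like cells, where 2 of 10 members fell and 0.732% of all genes did. Hspa5 was at 392 and 394 CPM in the young male and female, 243 and 382 in the old and 241 and 267 in the very old, and its log2 fold change was -0.46 (SE 0.100, adjusted p = 0.0216 in edgeR). Dnaja1 was at 378 and 427 in the young, 358 and 333 in the old and 248 and 269 in the very old mice, with a log2 fold change of -0.39 (SE 0.079, adjusted p = 0.0134). Neither gene overlapped between older and young mice, and 22.6% of all genes did not. DESeq2 called both and Hspa8, and 1.11% of all genes. Neither was called with the old mice alone, without the young male, without the sex term, or in cells without a positive S or G2/M score, a filter that removed 72.1% of the megakaryocyte-like cells. Hspa5 was also not called without the old male (log2 fold change -0.36, adjusted p = 0.0586 in edgeR), nor Dnaja1 without the young female (-0.33, adjusted p = 0.183). With 1 mouse left out in turn, the log2 fold change was between -0.65 and -0.28 for Hspa5 and between -0.47 and -0.33 for Dnaja1. With the old mice alone it was -0.35 and -0.21, in cells kept by the S and G2/M filter -0.23 and -0.28, and without the sex term -0.44 and -0.40. For these settings and the left-out mice the share of all genes called is not given. The lost calls are therefore not read as results about either gene. In the other 7 lineages edgeR called 0 of 10 members, with 1 to 4 at an unadjusted p under 0.05, beside 2.96% to 9.64% of all genes. DESeq2 made 1 call, that of Hspa5 in monocyte progenitor-like cells, where it called 0.0686% of all genes. Hspa5 had a log2 fold change between -0.24 and -0.54 in all 9 lineages, and Hspa8 one between -0.16 and -0.33. Hspd1 was above 0 in erythroid-like (0.03) and dendritic progenitor-like cells (0.22), and between -0.12 and -0.37 in the other lineages. The share of all genes called was 0.00794% in erythroid-like cells, 0.00889% in granulocyte progenitor-like, 0.035% in monocyte progenitor-like, 0.456% in erythroid-megakaryocyte precursor-like, 0.914% in lymphoid-primed multipotent progenitor-like, and 0% in basophil and mast cell-like and in dendritic progenitor-like cells.

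**Figure D5:**
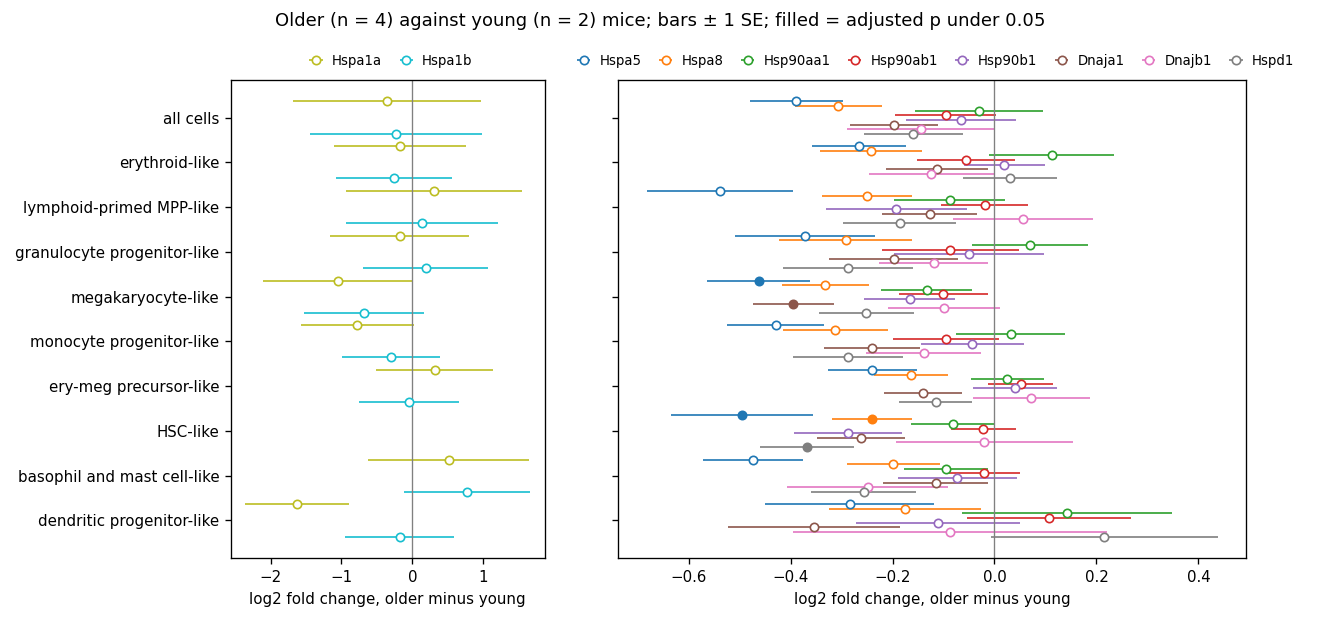
Log2 fold change of older (n = 4) against young (n = 2) mice (horizontal axes) by cell set (rows), for Hspa1a and Hspa1b (left) and the other 8 members (right), with bars of 1 SE and filled points for an adjusted p under 0.05 in edgeR. Filled points are Hspd1, Hspa5 and Hspa8 in HSC-like cells and Hspa5 and Dnaja1 in megakaryocyte-like cells, and the bars of Hspa1a and Hspa1b cross 0 in most sets.

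Whether the fall was larger in HSC-like cells than elsewhere was tested within mice. Against erythroid-like cells, the age effect in HSC-like cells was lower for Hspd1, by a log2 difference of -0.41 (SE 0.106, adjusted p = 0.0157 in edgeR), the only call of 10 members, where 2.28% of all genes were called lower. Hspd1 had a log2 fold change of 0.03 in erythroid-like cells, where it stood at 989 and 1018 CPM in the young mice and at 904 to 1202 in the older mice. DESeq2 did not call it, and it was not called without the young male, without the young female or without the old male. The difference was between -0.54 and -0.27 with 1 mouse left out in turn and -0.41 in DESeq2. It was also not called in cells kept by the S and G2/M filter (-0.32, adjusted p = 0.0705 in edgeR) or with clusters made without Harmony, the step that aligns libraries (-0.23, adjusted p = 0.587). The share of all genes called is not given for the settings in which Hspd1 was not called. Without the old female 4 members were called, and 6.72% of all genes. Scaling by library total moved the median difference of all genes from -0.02 to -0.11. Against granulocyte progenitor-like cells 0 of 10 members differed by edgeR or DESeq2, with 0 at an unadjusted p under 0.05 and 2.75% of all genes called, and the difference for Hspd1 was -0.07 (SE 0.131).

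No member passed the test between middle-aged and young mice. Over all cells 0 of 10 members were called in edgeR (0 in DESeq2, and 0.397% of all genes called in edgeR), and 8 of 10 had a fold change above 0. At an unadjusted p under 0.05 there was 1, Hsp90b1, where 16.5% of all genes were, at 536 ± 45.8 CPM against 412 ± 25.4 (n = 2 each), with a log2 fold change of 0.31 (adjusted p = 0.284 in edgeR). The fold changes of Hspa1a and Hspa1b were larger, 0.75 and 0.74, with standard errors of 1.40 and 1.29. In HSC-like cells 0 of 8 were called in edgeR, where 2.97% of all genes were, and DESeq2 called 0. An unadjusted p under 0.05 was found for 3 of 8, beside 14.9% of all genes. Between male and female mice 0 of 10 members differed over all cells in edgeR, with 0 in DESeq2 and 0.13% of all genes called, and 0 had an unadjusted p under 0.05, beside 10.3% of all genes. In HSC-like cells 0 of 8 were called in edgeR, where 1.16% of all genes were, and DESeq2 called 0. An unadjusted p under 0.05 was found for 4 of 8, beside 10.2% of all genes. Hspa5 was the nearest, with a log2 fold change of -0.42 in males (adjusted p = 0.0895). Without the young female 5 of the 10 members then tested were called between the sexes in HSC-like cells, where 2.16% of all genes were, and without the young male 4 of 10, where 2.1% were. Hspa1a and Hspa1b were among the called members both times, but they pass the filter on low counts and differ by sex there mainly through the old male, with 346 and 134 UMIs against at most 12 and 10 in any other library, so no direction by sex is drawn from these calls.

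The wider chaperone lists showed few calls. Over all cells, 0 genes of any list were called in edgeR, where 1.21% of all genes were. The lists had 33 cytosolic heat shock genes, 13 of the CCT chaperonin and prefoldin, and 10 mitochondrial chaperones. Of the ER chaperone and unfolded protein response list 32 were tested, and of the immediate-early list 28. In HSC-like cells the cytosolic list had 4 genes higher and 1 lower in older mice of 32 tested, where 7.19% of all genes were higher and 4.41% lower. Hspb1 rose from 0.573 and 0.553 CPM in the young male and female to between 1.49 and 6.75 in the older mice, a log2 fold change of 2.72 (SE 0.829, adjusted p = 0.0364 in edgeR). It rests on few UMIs, 73 over all 8 libraries. Dnajb4, a J-domain gene, rose from 24.6 and 35.9 CPM to between 44.1 and 60.6 (log2 fold change 0.88, adjusted p = 0.00264), and Dnaja4 rose by 1.62 (adjusted p = 0.0310). Fkbp4, an HSP90 co-chaperone, fell from 174 and 193 CPM to between 115 and 151 (log2 fold change -0.35, adjusted p = 0.0193).

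The ER list had 1 gene higher and 3 lower of 30 tested in HSC-like cells. Trib3, a pseudokinase induced by the integrated stress response, rose from 6.301 and 6.08 CPM to between 17.1 and 26.8 (log2 fold change 1.83, SE 0.296, adjusted p = 0.000254 in edgeR). Sdf2l1, Hyou1 and Calr, all ER chaperones or cofactors, fell by 1.04, 0.93 and 0.33 on the log2 scale (adjusted p = 0.0103, 0.0223 and 0.0168). At 3 of 30 lower and 1 of 30 higher, these counts stood beside 4.41% and 7.19% of all genes. The mitochondrial and chaperonin counts, of 1 gene in a direction at most, are read against the same shares of all genes. Of 10 mitochondrial chaperones 1 fell, Trap1, an HSP90 of mitochondria (log2 fold change -0.39, adjusted p = 0.0481), and Hspd1 belongs to the members. Of 13 genes of the CCT chaperonin and prefoldin list, Cct3, a CCT subunit, fell (-0.30, adjusted p = 0.0380 in edgeR) and Pfdn5, a prefoldin subunit, rose (0.34, adjusted p = 0.00599).

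Of 25 immediate-early genes tested in HSC-like cells, 7 were higher and 1 lower in older mice, where 7.19% and 4.41% of all genes were, and 17 were not called. The median log2 fold change was 0.37, against -0.02 over all genes. The summed level of the 30 listed genes did not rise in every older mouse, at 977 and 1058 CPM in the young mice, 1750 and 1334 in the old male and female and 916 and 939 in the very old mice. Socs3, an inhibitor of cytokine signalling, rose from 3.44 and 2.76 CPM to between 7.05 and 22.6 (log2 fold change 2.22, adjusted p = 0.00509 in edgeR). Its highest value was at middle age, 45.6 CPM in the male, with 11.8 in the female. Fosl2 rose by 1.95 (adjusted p = 0.0242) and Cebpd by 1.08 (adjusted p = 0.0111), and Myc fell by 0.81 (adjusted p = 0.00169). The old male was the highest of 8 for Jun in these cells, at 295 CPM against 43.2 to 118 in the others, and for Fosl2, at 25.4 against 2.29 to 7.70, and was thus high in Jun, Fosl2, Hspa1a and Hspa1b at once. Egr1 was highest in the old female, at 61.2 CPM, and at 5.76 in the old male.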

How the data were processed

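The matrices hold counts of UMIs per gene and cell, deposited by the authors without normalization, 1 matrix per mouse. Per the file headers they came from Cell Ranger 6.0.0, and the submitters' processing notes name mm10. The members and the gene lists were chosen with earlier results of these data known. Barcodes with fewer than 200 detected genes were removed, and no doublet was removed in the main analysis. Clustering used 2000 variable genes, chaperone, heat shock and immediate-early genes left out, with 30 principal components, Harmony (theta 1), 20 neighbours and Leiden resolution 0.8 (leidenalg 0.10.2). A cluster took a lineage name where 3 or more of that lineage's markers were among its 50 leading genes.

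UMIs were summed per mouse and lineage, filtered for low counts, scaled by TMM and tested with edgeR 4.0.16 quasi-likelihood fits of age group and sex, with Benjamini-Hochberg adjustment over all genes tested. The 4 old and very old mice were set against the 2 young mice. DESeq2 1.42.0 was an alternative. Tested on simulated data in which 200 genes were changed 2-fold, the older against young fit recovered 76.5% of them over all cells (15361 genes, 13 false calls) and 76% in HSC-like cells (10994 genes, 9 false calls). The members called with age had smaller log2 fold changes, from -0.24 to -0.49. Recovery of changes of that size was not tested. The text names the 10 members, up to 3 largest rises and 3 largest falls among the called genes of each other list, the 5 genes most like Hspa1a and Hspa5 at a mean of 10 CPM or more, and Fos, Jun, Egr1 and Hspb1. Each mouse is 1 sample, so the spread is between mice. Scaling, filters, cell sets, clustering, the sex term, the ages compared and each library were varied in turn.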

Additional observations from a re-analysis of the deposited data

Results flagged for a closer look

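Among the 4 older mice, 100 groups of values (10 genes in all cells and 9 lineages) were screened for an outlying mouse. A highest or lowest mouse was flagged where its gap to its neighbour exceeded 0.829 of the range, and 21 groups were flagged. Chance flags about 1 in 20 independent groups. These groups share the same 4 mice, all cells hold the lineages, and Hspa1a and Hspa1b ran in parallel. The count of flags is therefore not set against that share. Of the 21 flags, 19 were Hspa1a or Hspa1b in the old male, which is 1 mouse seen many times. For Hspa1a the old male held 50.0 CPM in all cells, 21.5 in erythroid-like, 63.2 in lymphoid-primed multipotent progenitor-like, 48.7 in granulocyte progenitor-like, 66.2 in megakaryocyte-like and 72.5 in monocyte progenitor-like cells. It held 53.4 in erythroid-megakaryocyte precursor-like, 68.7 in HSC-like, 67.3 in basophil and mast cell-like and 73.4 in dendritic progenitor-like cells. For Hspa1b it held 32.7 CPM in all cells, 25.1 in erythroid-like, 37.5 in lymphoid-primed multipotent progenitor-like, 30.3 in granulocyte progenitor-like, 36.7 in megakaryocyte-like and 34.2 in monocyte progenitor-like cells. It held 53.0 in erythroid-megakaryocyte precursor-like, 26.6 in HSC-like and 45.6 in basophil and mast cell-like cells.

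The old male also stood out in Hsp90aa1 in erythroid-like cells, at 3363 CPM, and in Dnajb1 in basophil and mast cell-like cells, at 59.4 CPM. In edgeR the age effect on Hspd1 was called different between lineages, by -0.41 on the log2 scale for HSC-like minus erythroid-like cells. DESeq2 did not call it, and without Harmony it was -0.23 (adjusted p = 0.587 in edgeR). Against granulocyte progenitor-like cells the difference was -0.07 (SE 0.131).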

How the results depend on the processing

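Of the counts of members called and the summaries of levels and shares, 241 alternatives gave values close to those reported and 50 did not. Over all cells DESeq2 called 2 members with age. In HSC-like cells the 3 calls with age became 0 with DESeq2, without the sex term, with old mice alone or with a linear trend, 5 with library totals and 1 without Harmony, and 0 to 4 when 1 mouse was left out. The count for middle age was 2 with no filter, 1 without Harmony and 0 to 2 with 1 mouse left out, and that for sex 3, 1 and 0 to 5, and 2 at resolution 1.6. In megakaryocyte-like cells the 2 calls became 6 with no filter, 0 in non-cycling cells, without the sex term or with old mice alone, and 0 to 3 with 1 mouse left out. In monocyte progenitor-like cells there was 1 call with DESeq2 or library totals, 2 with no filter and 0 to 2 with 1 mouse left out. With no filter there was 1 call each in lymphoid-primed multipotent progenitor-like, basophil and mast cell-like and dendritic progenitor-like cells. With 1 mouse left out there were 0 to 1 in lymphoid-primed multipotent progenitor-like, erythroid-megakaryocyte precursor-like and basophil and mast cell-like cells. For HSC-like minus erythroid-like cells the 1 call became 0 with DESeq2 or without Harmony, 3 with library totals, 2 in non-cycling cells and 0 to 4 with 1 mouse left out. In non-cycling cells 18 of 90 levels moved by 1 SD or more, and at 2000 UMIs the shares of 8 of 10 members did. For most of these settings the share of all genes called is not given beside the counts of members. Those counts are therefore not read as results about the members. With library totals, calls over all genes for HSC-like minus erythroid-like cells went from 332 higher and 310 lower to 208 and 603. The causes were not tested.

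Some log2 fold changes with age that had not passed the test changed sign. Over all cells Hspa1a was 0.50 in non-cycling cells and 0.98 with old mice alone (-2.88 to 1.77 with 1 mouse left out), and Hspa1b was 0.41, 0.62 and, without the sex term, 0.028 (-2.57 to 1.65). Hsp90b1 was 0.041 with old mice alone (-0.17 to 0.039) and Dnajb1 0.024 in non-cycling cells (-0.42 to 0.16). With 1 mouse left out Hsp90aa1 ran from -0.26 to 0.22, Hsp90ab1 from -0.22 to 0.044 and Hspd1 from -0.32 to 0.021. In HSC-like cells Hsp90aa1 was 0.10 without Harmony (-0.24 to 0.087). Hsp90ab1 was 0.0072 with no filter, 0.026 without Harmony, 0.013 at resolution 1.6 and 0.030 with old mice alone (-0.054 to 0.0075). Dnajb1 was 0.0081, 0.070, 0.086 and 0.11 under these and 0.048 in non-cycling cells (-0.46 to 0.46). Removing clusters with a high mitochondrial share, chosen after seeing the data, took cells only from erythroid-like, lymphoid-primed multipotent progenitor-like and unnamed cells, so it is no check of the calls in HSC-like and megakaryocyte-like cells. It moved 2 of 90 levels by 1 SD or more, those of Hspa5 and Hsp90b1 in lymphoid-primed multipotent progenitor-like cells, and left 0 calls over all cells and in both lineages.

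With 2 young and 4 older mice, 1 mouse can decide a call, and levels of Hspa1a and Hspa1b in HSC-like cells rest on few UMIs outside the old male.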
